A study of Homo sapiens with 2 samples.

Results

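Chromosome 22 carried 713 of the 24824 KMT2D peaks listed for the lymphoma line OCI-LY7, or 2.87% of the list. Every peak that the deposited list places on chromosome 22 was taken, whatever its height, and the peaks were then described in windows of 5 Mb by the position of their highest point, beginning at 16 Mb. OCI-LY7 is an established line of diffuse large B-cell lymphoma of the germinal centre B-cell type, and the labels give its genotype as wild type without naming the gene. The only treatment the labels give is fixation with 1% formaldehyde. The series holds 1 chromatin immunoprecipitation sequencing (ChIP-seq) library made with an antibody to the N-terminal part of KMT2D and 1 input library of the same line made without antibody. The peak list is that of the KMT2D library, and separate values of the input library were not analysed here. With 1 library of 1 line no difference below could be tested across replicates, so no p-value is given. The intervals are exact 95% intervals for counting error over peaks, which are not independent, and they say nothing of how a second library would vary.

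KMT2D, also called MLL4, is a histone methyltransferase that places the first methyl groups on lysine 4 of histone H3, largely at enhancers, and it works in a large complex that also holds the H3K27 demethylase UTX. Inactivating mutations of KMT2D are frequent in germinal centre lymphomas. Chromosome 22 is a small, gene-dense chromosome whose short arm carries ribosomal RNA genes and repeats, so that its assembled sequence is nearly all long arm. It carries the immunoglobulin lambda light chain locus and several genes of B-cell interest. In the order of RefSeq's GRCh38.p14 gene table, which holds all 31 genes looked up, VPREB1 and IGLL5 (both within the lambda locus) are followed by BCR, the gene broken in the Philadelphia translocation, and, after IGLL1 and VPREB3, by SMARCB1, a subunit of the SWI/SNF chromatin remodeller. XBP1, a plasma cell and unfolded protein response factor, comes next among the genes looked up. Farther along lie RAC2, a GTPase of blood cells, the 7 APOBEC3 cytidine deaminase genes, the histone acetyltransferase gene EP300 and TNFRSF13C, which encodes the BAFF receptor. That table is on another genome build than the peaks, which are on hg19, so no peak was assigned to a gene, exon or intron and regions are named by position only.

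The peaks of chromosome 22 were short and of moderate height. Height is a whole number per peak in the authors' units, whose normalization is not stated, and it ran from 24 to 168 with a median of 45 (42 to 47) and an interquartile range of 33 to 63. Width ran from 99 to 2611 bp with a median of 533 bp (489 to 585 bp). Width rose with height, with a Spearman correlation of 0.87 across the 713 peaks, which all come from the same library and peak caller. Peaks of up to 200 bp numbered 151 (21.2%; 18.2 to 24.4%), and 7 were wider than 2000 bp. The share of peaks of up to 200 bp was 21.04% on chromosomes 1 to 21 and X together, inside the interval of chromosome 22. Only 30 peaks (4.21%) reached a height of 100, against 4.13% on chromosomes 1 to 21 and X together. Both comparisons take all listed peaks, and the list goes down to a height of 24 on chromosome 22 but 13 on the others together. These shares were not computed for a common minimum height. The highest point lay near the middle of the typical peak, at a median of 47.1% of the way from start to end. No 2 peaks overlapped, and the smallest distance between neighbours was 101 bp.

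Along the chromosome the number of peaks differed up to 2.98-fold between windows of equal length, while the peaks themselves kept nearly the same typical height. The first window, from 16 to 21 Mb, held 67 peaks (51.9 to 85.1), and its first peak, of height 40, lay at 17395950 to 17396255, so more than 1 Mb of it was without a listed peak. Window 2, from 21 to 26 Mb, held the most, with 155 peaks (131.6 to 181.4). Numbers then fell to 61 (46.7 to 78.4) from 26 to 31 Mb and to 52 (38.8 to 68.2) from 31 to 36 Mb. A second maximum of 152 peaks (128.8 to 178.2) lay between 36 and 41 Mb. Beyond it the numbers were 124 (103.1 to 147.8) from 41 to 46 Mb and 97 (78.7 to 118.3) from 46 to 51 Mb. The remaining 5 peaks lay past 51 Mb, where the last peak, at 51066267 to 51066917, was also the tallest with a height of 59, and no density was computed for that short end.

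Of the 7 full windows, windows 2 and 5 thus held the most peaks, together 307 or 43.1% of the chromosome. Windows 3 and 4 between them held the fewest, together 113 (15.8%). The number in window 2 was 2.98 times that in window 4 (2.16 to 4.16), and window 5 exceeded window 4 by 2.92 times (2.12 to 4.09). The counts of windows 2 and 5 did not differ beyond counting error, with a ratio of 1.02 (0.81 to 1.28), and neither did those of windows 3 and 4, at 1.17 (0.80 to 1.73). Window 6 was also not separated from window 2, which held 1.25 times as many peaks (0.98 to 1.596). Nor was window 6 separated from window 5, which held 1.23 times as many (0.96 to 1.57). Window 1 held 1.10 times as many peaks as window 3 (0.76 to 1.58), so these were not separated either. Against the 6 other full windows pooled, window 2 was 1.68 times as dense (1.398 to 2.01), a ratio that is high partly because the fullest window was picked by its count. Which window was the fullest depended on the settings. Among the highest-scoring 50% of peaks it was 36 to 41 Mb, and with all windows moved by 2.5 Mb it was 38.5 to 43.5 Mb.

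**Figure D1:**
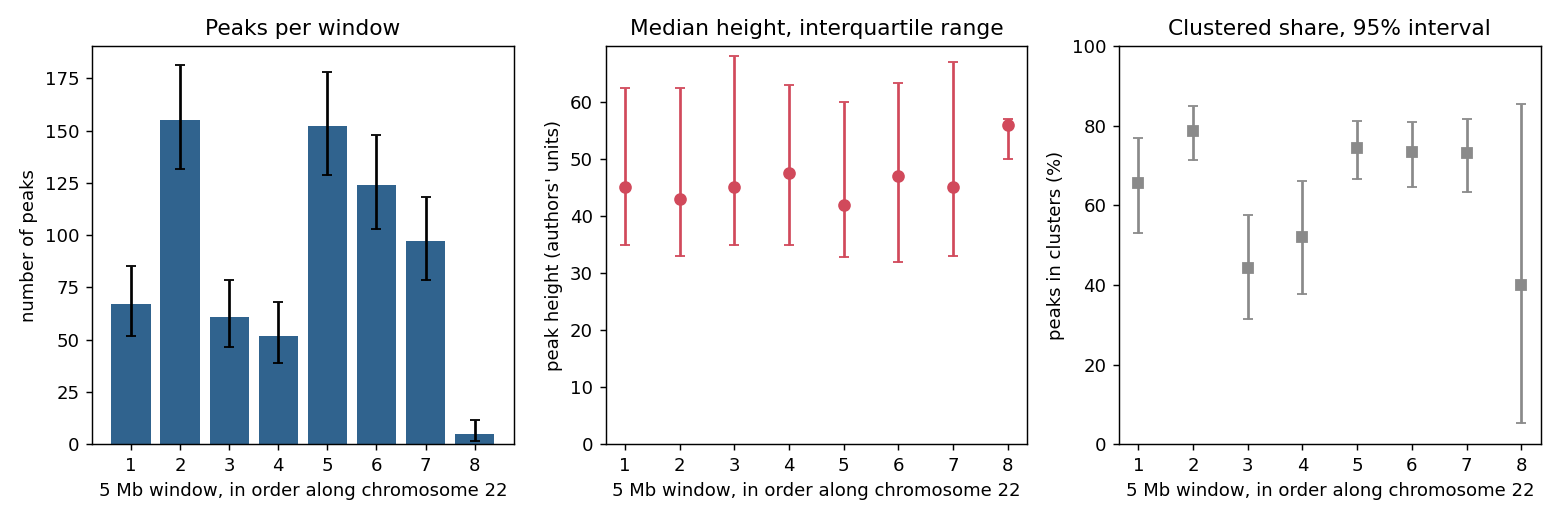
Peaks of chromosome 22 in 8 windows of 5 Mb numbered along the chromosome from 16 Mb, with window 8 cut short by the chromosome's end. Left, number of peaks with exact Poisson 95% intervals; middle, median height in the authors' units with the interquartile range; right, share of peaks in clusters with exact binomial 95% intervals. Windows 2 and 5 held 155 and 152 peaks and windows 3 and 4 held 61 and 52, while median heights of the 7 full windows stayed between 42 and 47.5.

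Median height differed little between these windows. It was 45 in window 1, 43 in window 2, 45 in window 3, 47.5 in window 4, 42 in window 5, 47 in window 6 and 45 in window 7. The intervals of these 7 medians all overlapped, the widest being 40 to 59 in window 4. The median of window 4 was 1.13 times that of window 5, against the 2.98-fold range in peak number. The lowest listed height was 24 to 27 in each full window, so the floor of the list was nearly the same along the chromosome. Across the 7 full windows, number and median height were correlated at -0.70 (Spearman) and -0.66 (Pearson), and across 34 windows of 1 Mb the values were -0.32 and -0.33. Windows rich in peaks therefore did not have taller typical peaks within this chromosome. Median widths of the full windows ran from 485 bp in window 2 to 586 bp in window 7, again with overlapping intervals (396 to 599 bp and 455 to 677 bp). As a share of sequence, peaks covered 1.81% of window 2, 1.795% of window 5 and 0.628% of window 4.

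At a finer scale, some stretches of 1 to 4 Mb were rich in peaks and others were thinly filled, with stretches of intermediate number as well. Stretches and their limits were chosen after the values were seen. From 22 to 25 Mb, 136 peaks lay in 3 Mb, or 45.3 per Mb, with 44, 51 and 41 peaks in the 3 windows of 1 Mb. The next 4 Mb, from 25 to 29 Mb, held 32 peaks (8 per Mb). From 36 to 40 Mb the number was again 136, or 34 per Mb, rising to 47 in the window from 39 to 40 Mb. The window from 40 to 41 Mb held 16 peaks, near the median of 17 over the windows of 1 Mb from 17 to 51 Mb. Another 107 peaks lay from 41 to 44 Mb, of which 46 were between 42 and 43 Mb. The last full window of 1 Mb, from 50 to 51 Mb, held 46 peaks, after 27 peaks in the 3 Mb before it. Of the 34 windows from 17 to 51 Mb, 6 held 40 or more peaks each and together 275 peaks (38.6%), whereas 9 windows held fewer than 10 and together 62. The emptiest, from 28 to 29 Mb, held 2 peaks. The median height was 43.5 in the stretch from 22 to 25 Mb, 42 from 36 to 40 Mb, 46 from 41 to 44 Mb and 47 from 50 to 51 Mb, so these rich stretches lay near the chromosome's median of 45.

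**Figure D2:**
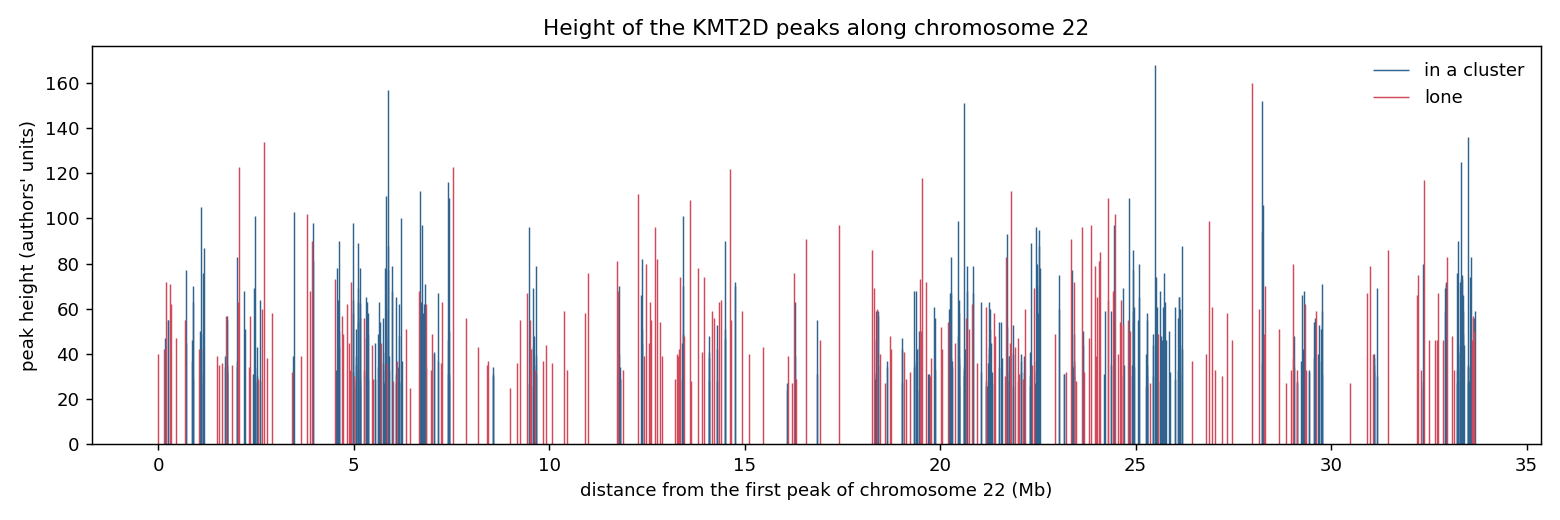
Each line is 1 of the 713 peaks of chromosome 22, placed by the distance of its highest point from that of the first peak (Mb) and drawn to its height in the authors' units, in blue where it lies within 12500 bp of another peak and in red where it is lone. The chromosome has dense blocks and thin stretches, and tall peaks, up to 168, occur in both.

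No window of 1 Mb on chromosome 22 was without a peak between its first and last peak. All 35 such windows, counting the partial one at the end, held at least 2. The window from 16 to 17 Mb held 0 peaks but lies before the first peak. It was not counted, nor were such windows on other chromosomes. By this count chromosome 22 was the only 1 of the 23 chromosomes examined (1 to 22 and X) with 0 empty windows. Chromosome 17 had 5 empty windows of 82 (6.10%) and chromosome 19 had 4 of 60 (6.67%). Unassembled sequence at centromeres adds empty windows on chromosomes with peaks on both arms. Leaving out windows inside each chromosome's longest stretch without peaks, chromosome 17 still had 2 empty windows of 79, and chromosome 19 had 1 of 57, so on this count they differ from chromosome 22 by 1 or 2 windows. The peaks were still unevenly spread on chromosome 22, where 9 of the 35 windows (25.7%) held 50% of them, close to the 26.7% on chromosome 19 and above the 19.5% on chromosome 17.

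Stretches without a listed peak were measured between neighbouring peaks, so the sequence of window 1 before the first peak was not counted. The longest of them lay in the poor windows 3 and 4, which held 3 of the 5 longest, and in window 7, which held 2. The longest ran from 34811376 to 35653202, or 842 kb, and was bordered by peaks of height 97 and 86. A stretch of 764 kb lay between 48840833 and 49604431, with bordering heights of 86 and 66. The third, from 28388537 to 29137532 (749 kb), lay between peaks of height 76 and 81. Next came 47170968 to 47890991 (720.02 kb), between heights of 59 and 27, and 32871038 to 33472264 (601 kb), between 43 and 24. Both borders of each of the first 3 stretches were thus above the chromosome's median height, and of the 10 border peaks of the 5 stretches 3 lay below it. In all, 8 distances exceeded 500 kb and 90 exceeded 100 kb, and the latter made up 61.3% of the chromosome's span. The typical distance was far shorter, with a median of 14.1 kb and an interquartile range of 2.57 to 47.01 kb. The longest distance on chromosome 22 was the shortest such maximum of the 23 chromosomes, against 4166 kb on chromosome 17 and 4277 kb on chromosome 19, and the second longest were 764 kb, 2807 kb and 2403 kb. As the depth is unknown, absence from the list does not show absence of KMT2D.

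The 10 tallest peaks were spread over 5 of the windows and stood in both crowded and isolated surroundings. The tallest, at 42895989 to 42896768 in window 6, was 168 high (3.73 times the median) over only 779 bp, and belonged to a group of 5 peaks. The second, at 45371133 to 45372058, reached 160 and had the highest score of the chromosome (98.3). It stood alone, 187 kb from its nearest neighbour and at the far edge of a stretch of 519 kb without peaks. The third, at 23277116 to 23278556 in window 2, reached 157 and lay in a cluster of 9 peaks.

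At 45636832 to 45637417 a narrow peak of 585 bp had a height of 152. In window 5 the interval 38004132 to 38005364 had a height of 151, with its nearest neighbour only 0.596 kb away. Near the end of the chromosome, 50907632 to 50909582 was a broad peak of 1950 bp and height 136, and another at 50708713 to 50709850 reached 125. Window 1 held lone peaks of height 134 at 20104365 to 20105548 and of 123 at 19466515 to 19467526. The tenth, at 24950807 to 24952304, also reached 123 and stood 117 kb from any other. Of the 10, 4 were lone and 6 lay in clusters, and their widths ran from 585 to 1950 bp around a median of 1160 bp. None of the 10 tallest peaks of the whole list lay on chromosome 22, whose tallest peak had rank 50 by height, and 3 of the 100 tallest did, close to the chromosome's 2.87% of all peaks.

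In the windows without a peak among the 10, the tallest was 111 at 29663411 to 29665094 in window 3, a lone peak, and 122 at 32026100 to 32027406 in window 4, also lone. So each full window had at least 1 peak above 110, including the poorest. Peaks of height 100 or more numbered 5, 8, 3, 1, 3, 7 and 3 in windows 1 to 7. The fullest window, window 2, thus had the most and the poorest, window 4, the fewest. The order was not kept throughout, since window 1 had 5 such peaks among 67 and window 5 had 3 among 152. The numbers are too small to separate most windows.

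The widest peaks were mostly other peaks than the tallest. At 23610290 to 23612901 in window 2 a peak of 2611 bp had a height of 100, and at 50968182 to 50970793 in window 7 a peak of the same width had a height of only 56. Others were 2532 bp wide at 41842335 to 41844867 (height 97), 2458 bp at 27066886 to 27069344 (height 79) and 2451 bp at 31741431 to 31743882 (height 63). None of the 5 was among the 10 tallest, and 4 of the 5 had a neighbour within 12500 bp.

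Peaks no more than 12500 bp apart were joined into clusters, and 69.7% of the peaks of chromosome 22 had such a neighbour. Among the highest-scoring 50% the share was 48.97% (44.2 to 53.8%). With all peaks, the share on chromosomes 1 to 21 and X together was 63.2% (62.6 to 63.8%). Chromosome 22 had 150 clusters holding 497 peaks (interval of the share 66.2 to 73.1%), and 216 of its peaks were lone. Most clusters were small, since 70 held 2 peaks, 51 held 3 or 4 and 29 held 5 or more, and the median cluster spanned 7.61 kb. The clustered share followed the number of peaks in a window. It was 78.7% (71.4 to 84.9%) in window 2, 74.3% (66.6 to 81.1%) in window 5, 73.4% in window 6, 73.2% in window 7 and 65.7% in window 1, but 51.9% (37.6 to 66.0%) in window 4 and 44.3% (31.5 to 57.6%) in window 3. Peaks in a crowded window lie closer by construction, so this share is not independent of the counts. Clusters of 5 or more peaks were more unevenly placed, with 11 in window 2, 7 in window 5, 6 in window 6, 3 in window 7, 1 each in windows 1 and 4 and 0 in window 3.

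The 5 clusters with the most peaks lay in the same rich windows. The largest, at 42314183 to 42353920 in window 6, held 12 peaks over 39.7 kb, of which 18.1% was covered. Its 12 heights from left to right were 30, 35, 86, 59, 28, 29, 54, 30, 29, 77, 61 and 34. Stronger peaks, 5 in number and 54 to 86 high, thus alternated with 7 weak ones of 28 to 35. The second, at 39833623 to 39898846 in window 5, was looser, with 10 peaks over 65.2 kb, a median distance of 6.44 kb and heights of 27 to 96. Cluster 3, at 43506415 to 43539733 in window 6, held 9 peaks with heights of 29 to 65 and a median of 42, the highest median of the 5 clusters.

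Window 2 held the other 2 of these clusters, both with 9 peaks and both dominated by a tall peak. The cluster at 23270765 to 23301757 had heights of 77, 88, 32, 157, 34, 39, 32, 33 and 39, so its 3 strong peaks lay in the left part and the other 6 stayed at or below 39. That at 24093105 to 24115526 was the most compact of the 5, with 9 peaks in 22.4 kb and 28.7% of the span covered. It opened with a peak of 2340 bp and height 112, followed by heights of 34, 63, 36, 29, 57, 25, 34 and 33. In all 5 clusters at most 5 peaks reached a height of 50, and 1 to 3 of the distances were under 500 bp. Such close pairs made up 101 of the 712 distances on the chromosome (14.2%) and are counted here as separate peaks.

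**Figure D3:**
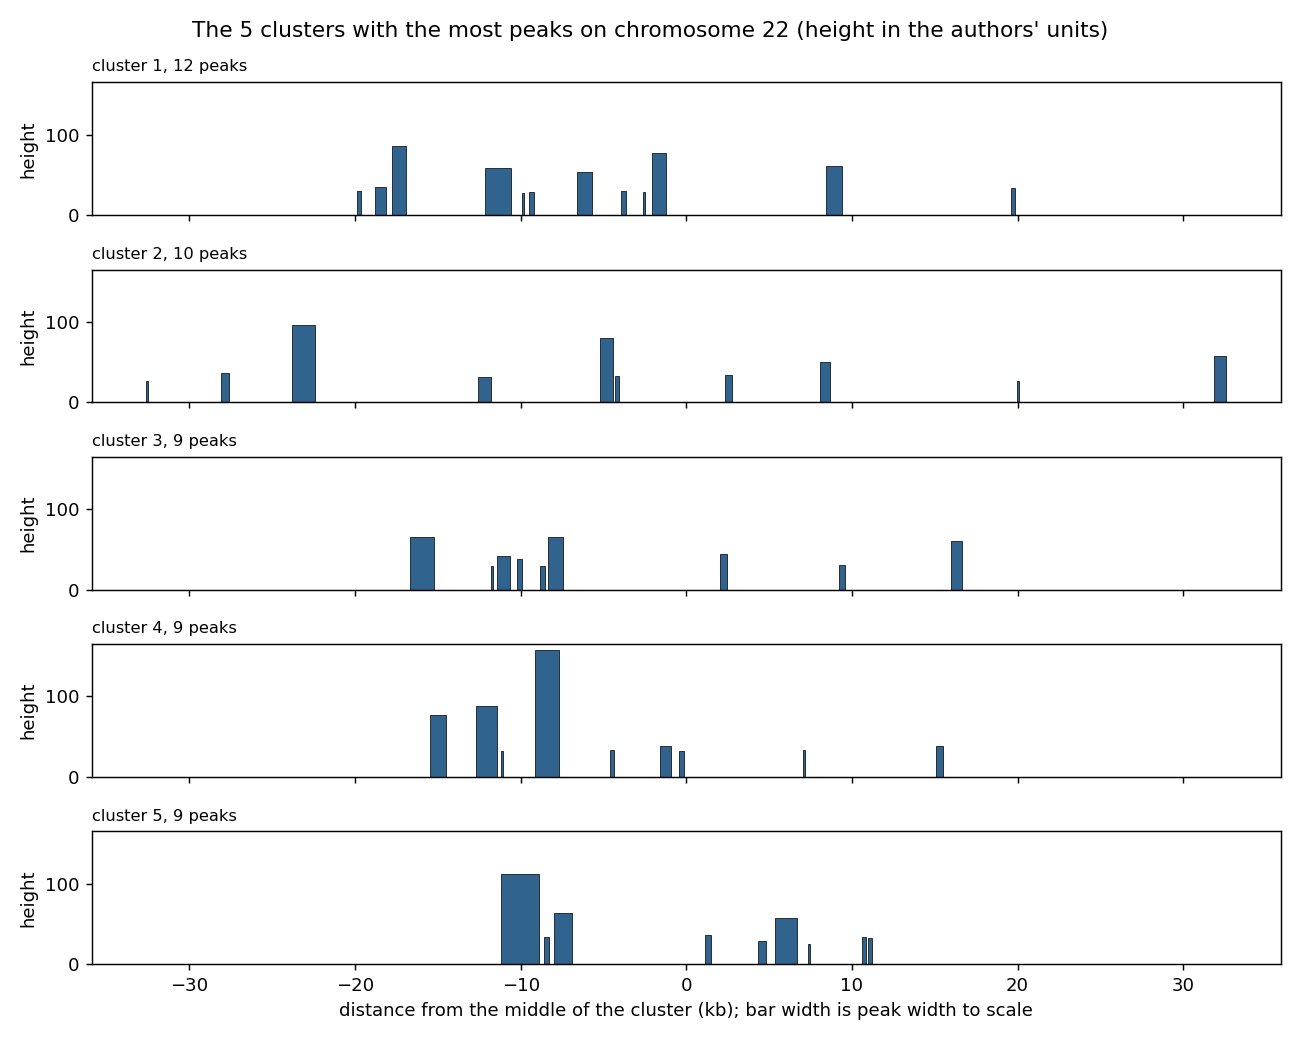
The 5 clusters with the most peaks on chromosome 22, with each bar a peak, its height in the authors' units on the vertical axis and its position as distance from the middle of the cluster in kb, widths to scale. Clusters 4 and 5 hold a tall peak of 157 and 112 beside weak ones, whereas no peak of cluster 3 exceeds 65.

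For lone peaks of chromosome 22 the medians were a height of 50 (46 to 55) and 634.5 bp in width (564 to 688 bp). Clustered peaks had 42 (39 to 45) and 480 bp (413 to 548 bp), so neither pair of intervals overlapped. The peaks on either side of the 101 distances under 500 bp are clustered by definition. The comparison was not repeated with such peaks merged, which makes peaks wider and taller. Peaks in clusters of 5 or more had nearly the same values as clustered peaks as a whole, of which they are a part, with medians of 42 for height (36 to 48) and 481.5 bp for width (370.0 to 588 bp).

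Chromosomes 17 and 19, the other dense chromosomes, were the closest to chromosome 22 in peak density and were compared with it. Over the span from its first to its last peak chromosome 22 had 21.2 peaks per Mb (19.6 to 22.8), which was 1.17 times the density of chromosome 17 (1.07 to 1.28) and 0.794 times that of chromosome 19 (0.725 to 0.868). Counted in bases covered, the distance to chromosome 17 nearly vanished, at 1.04 times, because the peaks of chromosome 22 were narrower. Covered bases made up 1.29% of the span on chromosome 22, 1.24% on chromosome 17 and 1.68% on chromosome 19. Each span includes the chromosome's longest stretch without peaks, of 842 kb on chromosome 22, 4166 kb on chromosome 17 and 4277 kb on chromosome 19. These stretches lower the densities and covered shares of chromosomes 17 and 19 by a larger part. The ratios were not computed without them. The clustered shares of 69.7% on chromosome 22, 69.1% (66.7 to 71.5%) on chromosome 17 and 70.4% (68.1 to 72.6%) on chromosome 19 had overlapping intervals. Of the highest-scoring 25% of peaks in the list, chromosome 22 held 200, or 28.1% of its own peaks (24.8 to 31.5%). That share was below the 35.9% of chromosome 19 (33.5 to 38.4%). It was not separated from the 31.2% of chromosome 17 (28.8 to 33.6%) or the 24.9% of chromosomes 1 to 21 and X together (24.4 to 25.5%). The lowest listed height differs between chromosomes, so these shares are over lists cut at unlike heights.

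Peaks of chromosome 22 had a lower median width than those of most other chromosomes, while how their heights compared depended on where the list was cut. The median width of 533 bp was the second narrowest of the 23 chromosomes, next to 605.5 bp (564 to 643 bp) on chromosome 17, 588 bp (562 to 614 bp) on chromosome 19 and 611 bp (603 to 621 bp) on chromosomes 1 to 21 and X together. The median height of 45 was the third highest, next to 46 (44 to 48) on chromosome 17, 51 (49 to 53) on chromosome 19 and 39 (39 to 40) on chromosomes 1 to 21 and X. The interval for width on chromosome 22 overlapped those on chromosomes 17 and 19 and on most other single chromosomes. It lay below that on chromosomes 1 to 21 and X together. The medians come from lists whose lowest height differs between chromosomes, from 13 on X to 26 on chromosome 19. With only peaks of height 26 or more on every chromosome, chromosome 22 no longer had the higher median height. It was 45 (42 to 47), against 47 (46 to 47) on chromosomes 1 to 21 and X, with overlapping intervals. The gap in width grew, with 545.5 bp (495 to 586 bp) against 751 bp (743 to 759 bp). Among the highest-scoring 50% of peaks both median heights were 59.

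Because width rises with height, peaks of the same height were compared. Between heights of 30 and 39 the median width was 278.5 bp on chromosome 22 (235 to 310 bp; 200 peaks), 279 bp on chromosome 17 (251 to 299 bp), 189.5 bp on chromosome 19 (177 to 201 bp) and 481 bp on chromosomes 1 to 21 and X (473 to 489 bp). At heights of 50 to 69 the widths were 810.0 bp (758 to 905 bp; 175 peaks), 806 bp, 702 bp and 943 bp in the same order. From a height of 100 the difference was within the intervals, with 1152 bp (1011 to 1306 bp; 30 peaks) on chromosome 22 and 1191 bp (1163 to 1229 bp) on chromosomes 1 to 21 and X. In the 3 remaining bands the intervals of chromosomes 22 and 17 overlapped while the medians of chromosome 22 were lower, at 132 against 151 bp for heights of 24 to 29, 520.0 against 590.0 bp for 40 to 49 and 961.5 against 1037 bp for 70 to 99. Chromosome 19 was at 133, 466.5 and 894 bp there, so in the lowest band it did not lie below chromosome 22. Below a height of 100 each median of chromosome 22 lay under that of the rest pooled.

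**Figure D4:**
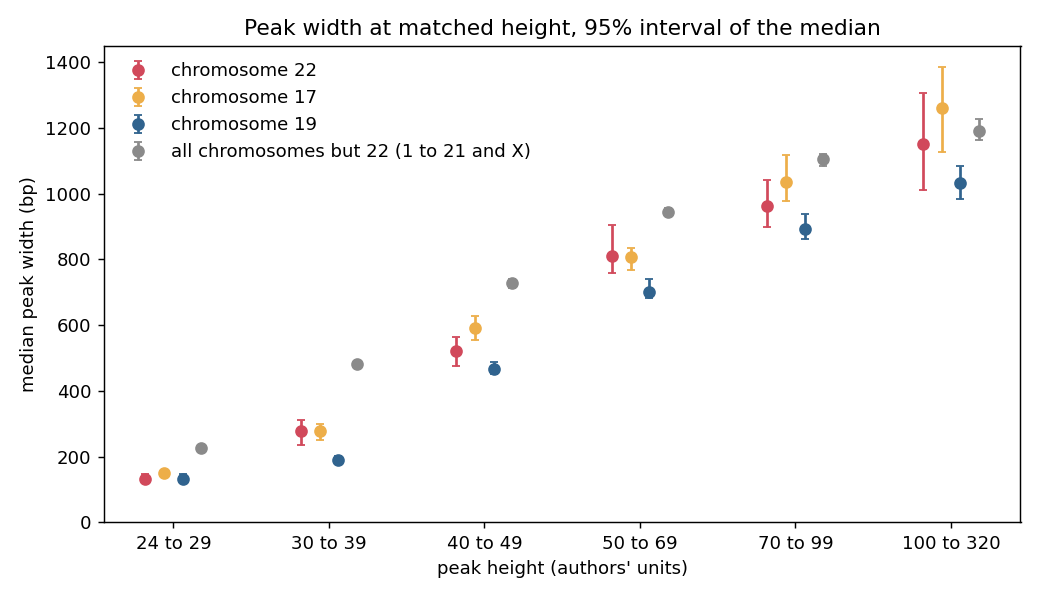
Median peak width in bp (points, with 95% order-statistic intervals) for 6 bands of peak height in the authors' units, on chromosomes 22, 17 and 19 and on chromosomes 1 to 21 and X together. Below a height of 100 the points of chromosome 22 lie under those of the other chromosomes together, for example 278.5 against 481 bp at heights of 30 to 39.

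Peak by peak, 558 of 711 peaks on chromosome 22 (78.5%; 75.3 to 81.4%) were narrower than the median width of peaks of exactly the same height on the other chromosomes and 153 were wider, leaving out 1 equal peak and 1 without a match. The same share, each time against all other chromosomes, was 73.3% on chromosome 17, 86.0% on chromosome 19 and 7.26% on X. It was above 50% in each full window of chromosome 22, from 72.2% (62.1 to 80.8%) in window 7 to 86.5% (74.2 to 94.4%) in window 4, and it was 78.7% for lone and 78.4% for clustered peaks.

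The lowest height listed on a chromosome moved with this share. It was 24 on chromosome 22, 23 on chromosome 17, 26 on chromosome 19 and 13 on X, and across the 23 chromosomes it was correlated with the share of narrow peaks at 0.96 (Spearman) and 0.98 (Pearson). Peak density had a Spearman correlation of 0.96 with it as well, and all these values come from the same library and peak list. The authors' significance value, which is negative throughout and lies farther from 0 for stronger peaks, moved too. At heights of 28 to 32 the median significance stood at -18.1 on chromosome 22 (117 peaks), -18.3 on chromosome 17, -17.2 on chromosome 19 and -22.0 on chromosomes 1 to 21 and X. The part of the chromosome's lower limit in the narrower widths was not tested.

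**Figure D5:**
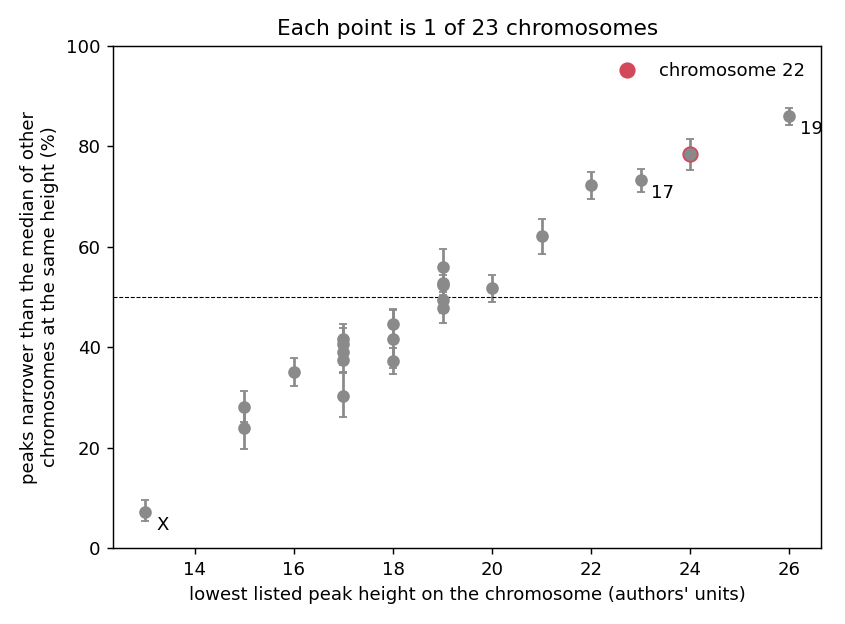
For each of 23 chromosomes, the share of its peaks narrower than the median of other chromosomes at the same height (percent, with exact binomial 95% intervals) against the lowest peak height listed on it in the authors' units; the dashed line marks 50%. Chromosome 22, in red, has 78.5% at a lowest height of 24 and lies between chromosomes 17 and 19.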

How the data were processed

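The authors deposited 1 list of peaks with 11 columns and no header, and columns were identified from their values. The build, hg19, and the use of CASAVA 1.8.2 come from the submitters' processing notes; which aligner, peak caller and threshold were used, and how the input entered, is not given in the sources used here. Whether positions count from 0 or 1 is not stated. The deposited signal value per peak was read as height; the deposited score and significance value have no stated scale, and the percent column deposited by the authors gives the position of the highest point. All 713 widths equalled end minus start, and each highest point lay inside its peak. Significance on chromosome 22 ran from -132.0 to -15.3. Depth is unknown.

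Computed here were counts, Poisson, binomial, conditional ratio and order-statistic intervals (95%), and clusters (12500 bp). Named by rule were the 10 tallest and 5 widest peaks, 5 largest clusters, 5 longest gaps, the tallest peak per window and the first and last peak. Members, lists and comparisons were chosen with earlier results of these data known; the matched-height comparison and its alternatives were chosen after seeing the data. Chromosome Y was left out. Alternatives were the highest-scoring 50% of peaks, merging under 500 bp, a minimum height of 26 (the highest of the chromosomes' lowest heights), covered bases, windows moved by 2.5 Mb, and stitching at 5 and 25 kb. Functions were tested on simulated data. Sequences and gene positions on hg19 were not used here. Software was scipy 1.17.1, numpy 2.4.6, matplotlib 3.10.9 and pandas 2.3.3 under Python 3.11.15.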

Additional observations from a re-analysis of the deposited data

How the results depend on the processing

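An alternative value was counted as moved if it fell outside the counting interval of the reported value; of 26 alternative values for 8 results, 14 stayed and 12 moved; 0 of the ratios crossed 1 and 0 of the shares of narrow peaks crossed 50%. Merging peaks under 500 bp apart gave 18.2 peaks per Mb, a median height of 49, a median width of 648.5 bp, 60.5% of peaks in clusters and 72.0% narrow peaks at matched height; fewer, wider and taller peaks follow from merging itself. The highest-scoring 50% gave 12.9 peaks per Mb, a density 0.705 times that of chromosome 19, 48.97% in clusters, no longer a majority, and 70.5% narrow peaks; fewer peaks enter, and for the ratio and the narrow peaks the cause was not tested. Covered bases gave 1.04 times chromosome 17. The clustered share was 54.7% with stitching at 5 kb and 78.8% at 25 kb, which follows from the distance. The minimum height of 26 left 706 peaks and moved none of these 8 results. It did change the comparison of median height with chromosomes 1 to 21 and X, from 45 against 39 to 45 against 47, where the intervals overlapped. The comparison of width went from 533 against 611 bp to 545.5 against 751 bp. Peaks below 26 leave mostly the other chromosomes by construction. No paired analysis was possible because there is 1 ChIP library.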
